A study of Mus musculus with 6 samples.

Results

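The genes of vitronectin (Vtn), fibronectin (Fn1) and 8 integrin subunits (Itgav, Itgb1, Itgb3, Itgb5, Itgb8, Itga3, Itga5 and Itga6) were followed by RNA-Seq in 6 samples of neural stem/progenitor cells (NSC/NPCs) from the fetal hypothalamus. They are 10 of the 22048 genes in the table, found by gene symbol, and each symbol matched a single row. The genes were chosen by family with the HE and NC RPKM values of these samples known, in which Vtn was among the genes with the largest increase. The difference between HE and NC in the 10 genes is therefore described and not tested.

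All samples came from male C57BL/6 fetuses at E14.5, whose hypothalami were dissociated and grown as neurospheres in medium with EGF and bFGF at 10 ng/ml each and 2% B27, and harvested at first passage. For the 3 HE samples, dams 8 weeks old were gavaged with estradiol valerate (100 μg/kg/d) between E5.5 and E11.5. The 3 NC samples came from dams given corn oil over the same days, although a label calls these cells untreated. Each sample pooled cells of 2 mice, the litters are not named, and any p-value therefore measures the spread between these samples.

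Integrins are pairs of an alpha and a beta subunit that span the cell membrane and hold the cell to proteins outside it. Vitronectin and fibronectin both carry the short RGD motif that integrins with alpha v, and the pair of alpha 5 with beta 1, recognise. Alpha 3 and alpha 6, joined to beta 1, are known mainly as receptors of laminins, and in the developing brain laminin receptors tie radial glia to the basement membrane.

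Transcript start regions of 3 genes are shown, to set a ligand (Vtn) beside a subunit of a vitronectin receptor (Itgb5) and a subunit of the fibronectin receptor (Itga5). They were picked after their values were seen. HE and NC did not overlap in any of them, with HE above in Vtn and Itgb5 and below in Itga5, and they did not overlap either in Itgb1, Itga3 and Itgb3, which are not shown. Each line gives the 150 bases before the RefSeq start on GRCm38.p6, read in the direction of the gene. Capitals mark a match on either strand to a GC box (GGGCGG), to the core letters of an estrogen response element (GGTCA) or to a TATA box (TATAAA). The Vtn stretch is chr11:78498970-78499119 on the plus strand, the Itgb5 stretch chr16:33829515-33829664 on the plus strand and the Itga5 stretch chr15:103366792-103366941 on the minus strand.
Vtn: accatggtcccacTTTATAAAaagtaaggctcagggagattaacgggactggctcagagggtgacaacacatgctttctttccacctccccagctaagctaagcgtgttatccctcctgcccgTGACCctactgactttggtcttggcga
Itgb5: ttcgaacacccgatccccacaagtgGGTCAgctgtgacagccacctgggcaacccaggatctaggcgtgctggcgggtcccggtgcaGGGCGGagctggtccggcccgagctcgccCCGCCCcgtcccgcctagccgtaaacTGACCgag
Itga5: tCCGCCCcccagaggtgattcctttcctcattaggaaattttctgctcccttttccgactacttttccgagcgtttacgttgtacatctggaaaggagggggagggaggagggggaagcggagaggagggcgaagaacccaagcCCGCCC

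RefSeq windows of equal length around a start were at hand for Vtn, Itgav, Itgb1, Itgb5, Itgb8 and Itga5 (1 each) and for Itga3 (2). Vtn differed in composition from the receptor genes. Its window had a GC content of 51.7% and 9 CpG dinucleotides, close to the medians of 52.7% and 7 over 32851 windows of all genes. The windows of the receptor genes lay between 58.7% and 67.3% GC, apart from the second Itga3 window at 52.3%. A full palindromic estrogen response element was in none of the 8 windows and in 0.07% of all windows. Its core letters, GGTCA, were in the windows of Vtn, Itgb5 and the second start of Itga3, and in 40.5% of all windows. The TATA letters were in the Vtn window alone among the 8, as 2 overlapping matches that are both in the printed stretch, and in 13.6% of all windows. GC boxes were in the windows of Itgav, Itgb1, Itgb5, Itga5 and Itga3 but not in those of Vtn and Itgb8, against 35.7% of all windows. The letters bound by TEAD factors (GGAATG) were in the windows of Vtn and Itgb1 and in 14.7% of all windows, and an AP-1 match (TGANTCA) was at the second Itga3 start and in 7.81% of all windows. Such matches are letters in these windows and nothing was measured there.

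The reads on genes numbered 16078675 to 19137059 per sample. Levels are in RPKM, read counts scaled by gene length and by the reads of the sample, in which 1 read on a kilobase of gene is worth 0.0523 to 0.0622. The progenitor markers Sox2 and Nes were present in all 6 samples. Sox2 was at 195 to 209 RPKM in NC and 97.3 to 176 RPKM in HE, without overlap. Nes was at 158 to 204 and 154 to 247 RPKM, which overlap. HE3 stood apart from the other samples. Sox10, of the oligodendrocyte lineage, was at 1.65 RPKM in HE3 and between 13.0 and 16.5 RPKM in the other 5. Olig1 and Olig2, of the same lineage, were instead highest in HE3, at 312 and 182 RPKM. In the other 5 they were at 134 to 188 and 97.7 to 131 RPKM. A log2 fold change or list median that moved by over 1.5 times without HE3 is also given without it, except for Itga7. With limma on log2(RPKM + 0.1), 0 of 13952 tested genes (0%), the 10 genes included, passed both an adjusted p-value of 0.05 and a log2 fold change of 1 either way. At an unadjusted p-value under 0.05, 1211 genes (8.68%) were higher and 1647 (11.8%) lower in HE. Whatever their p-value, 43.8% of the tested genes were higher in HE and 7843 of 13952 were lower. With voom on the read counts 0 genes were called, and with voom and sample quality weights 112 were. Of the 10 genes only Vtn was among the 112, and it was chosen with its increase known. All 10 genes passed the filter on low counts.

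Vitronectin is a secreted glycoprotein of plasma and matrix, which in the brain is made mainly by cells around blood vessels. Vtn lies on chromosome 11 from 78499120 to 78502325 with NC1, NC2 and NC3 at 0.840, 0.952 and 3.80 RPKM. In the HE samples it was at 8.20, 8.52 and 8.12 RPKM. All HE values lay above all NC values, the HE samples were nearly equal, and NC3 lay between the other NC samples and HE. In bulk RNA fewer cells of a type and less RNA per cell cannot be told apart. These levels stand on 32, 37 and 146 reads in NC and on 298, 330 and 265 reads in HE. The means of 1.86 ± 1.68 and 8.28 ± 0.214 RPKM (SD, n = 3 each) differed 4.44-fold, and the log2 fold change was 2.42 (standard error 0.51). It was 3.07 without NC3, and between 2.05 and 2.43 with any other sample left out. With a pseudocount of 1 in place of 0.1 it was 1.84, since the NC values are near the pseudocount.

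Fibronectin is the large matrix glycoprotein that cells assemble into fibrils through alpha 5 beta 1. Fn1, on chromosome 1 from 71585473 to 71653280, was at 24.1, 14.4 and 24.7 RPKM in NC and at 17.8, 19.7 and 7.59 RPKM in HE. The groups overlapped, and NC2 and HE3 were the low samples of their groups. The log2 fold change was -0.56 (standard error 0.39), and -0.13 without HE3. Between 1426 and 5477 reads per sample lay on the gene, so counting error is small beside the spread between samples. The 2 ligands therefore stood in different proportions. Fn1 had 28.7, 15.1 and 6.52 times the RPKM of Vtn in NC and 2.17, 2.31 and 0.935 times in HE, with no overlap, and in HE3 alone Vtn exceeded Fn1.

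**Figure D1:**
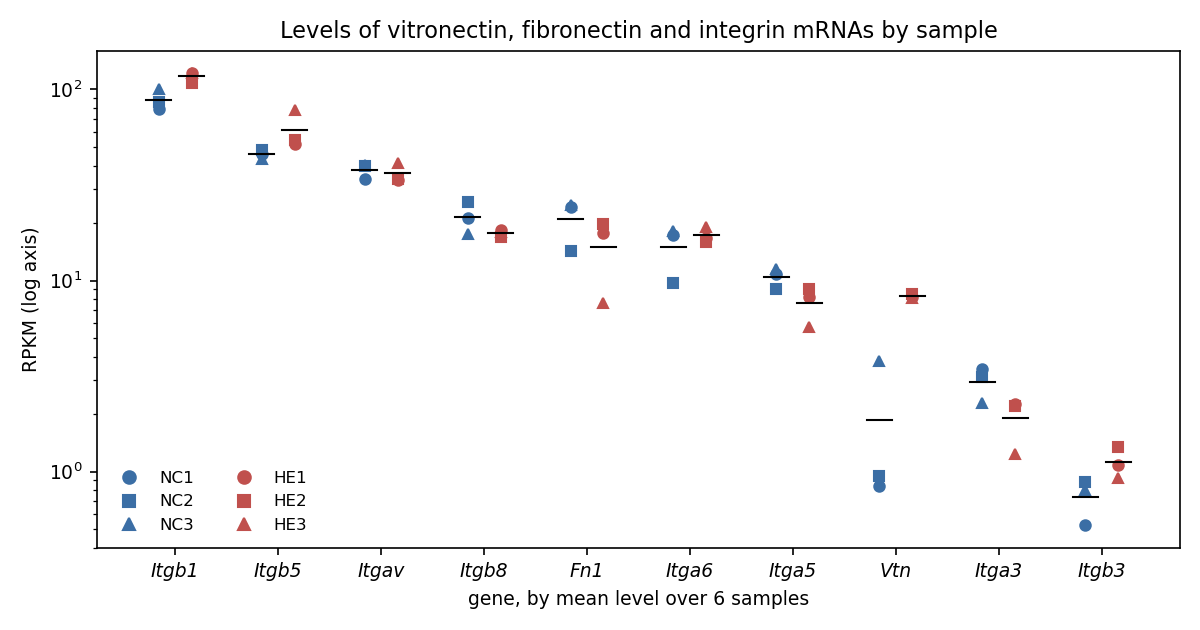
RPKM on a log axis of the 10 genes in 6 samples, ordered by mean level, with NC in blue, HE in red, the replicate number by symbol and group means as black lines. Vtn ranges from 0.840 to 8.52 RPKM with the groups apart, whereas Itgav stays between 33.8 and 41.4 RPKM.

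Alpha v is the subunit shared by the classical vitronectin receptors. Itgav, on chromosome 2 from 83722303 to 83806917, was at 34.1, 39.8 and 40.3 RPKM in NC and at 33.8, 34.2 and 41.4 RPKM in HE. The 2 groups covered nearly the same range, and over the 6 samples the highest value was 1.23 times the lowest, the least of the 10 genes. The log2 fold change was -0.06 (standard error 0.13). It was -0.16 without HE3 and 0.001 with voom. With all 6 samples the difference in the subunit common to the vitronectin receptors was thus smaller than its standard error, while its beta partners went different ways.

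Beta 5 pairs with alpha v to bind vitronectin. Itgb5 (chromosome 16, 33829665 to 33949338) was at 46.1, 48.2 and 43.0 RPKM in NC and at 52.1, 54.2 and 78.4 RPKM in HE. All HE samples lay above NC, with HE3 far above the rest. On the log2 scale the difference was 0.40 (standard error 0.17), and 0.22 without HE3. Beta 3, the partner of alpha v in endothelial cells and of alpha IIb in platelets, was the scarcest of the 10. Itgb3 (chromosome 11, 104608000 to 104670476) was at 0.524, 0.886 and 0.805 RPKM in NC and at 1.08, 1.34 and 0.927 RPKM in HE, on 58 to 151 reads. Its HE values also lay above NC, but HE3 and NC2 nearly touched. The log2 fold change was 0.55 (standard error 0.25), 0.35 without NC1 and 0.29 with a pseudocount of 1.

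Beta 8 pairs with alpha v to bind and activate latent TGF-beta. Itgb8 (chromosome 12, 119162803 to 119238276) was at 21.3, 25.8 and 17.6 RPKM in NC and at 18.4, 16.9 and 17.9 RPKM in HE. NC3 lay among the HE values, so the groups overlapped. Its log2 fold change was -0.26 (standard error 0.15), -0.12 without NC2 and -0.40 without NC3.

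The beta subunits that pair with alpha v, leaving out beta 1 because it has many other partners, can be set against each other within a sample. Itgb5 made up 67.8%, 64.3% and 70.1% of the summed RPKM of Itgb3, Itgb5, Itgb6 and Itgb8 in NC and 72.8%, 74.8% and 80.6% in HE. Itgb8 made up 31.3%, 34.5% and 28.6% in NC and 25.7%, 23.3% and 18.4% in HE. Neither share overlapped between the groups, and the means were 67.4 ± 2.89% and 76.1 ± 4.08% for Itgb5 (SD, n = 3 each) and 31.5 ± 2.94% and 22.5 ± 3.71% for Itgb8. Itgb3 never exceeded 1.85% of the sum, and Itgb6, which was below the filter on low counts, never exceeded 0.0883%. The shares describe the same values as the fold changes and were not tested apart from them. The sum of the 4 beta subunits was 1.52 to 1.99 times Itgav in NC and 2.12 to 2.35 times in HE.

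**Figure D2:**
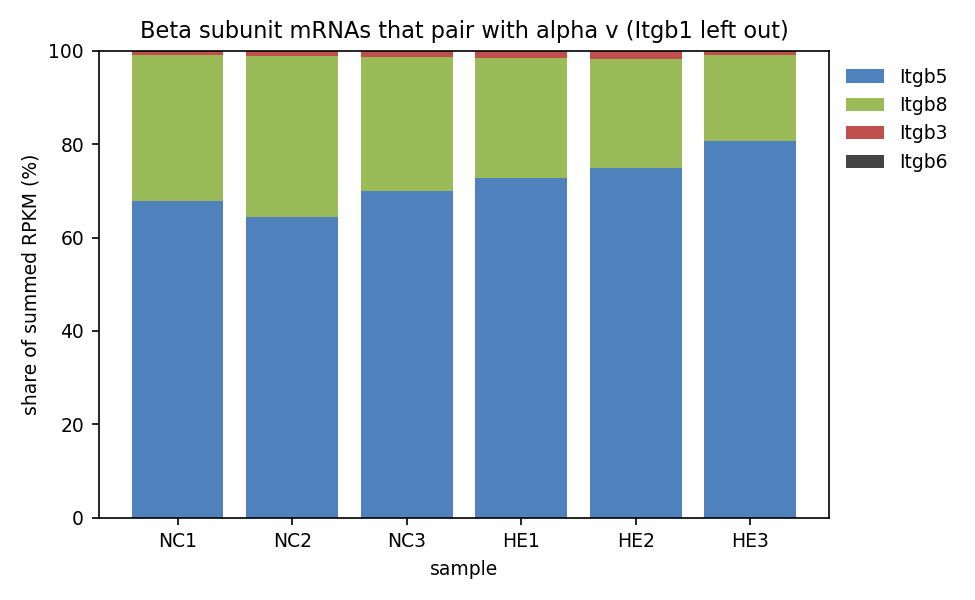
Shares in percent of the summed RPKM of Itgb3, Itgb5, Itgb6 and Itgb8 in each sample, stacked to 100. Itgb5 takes 64.3% to 70.1% in NC and 72.8% to 80.6% in HE, and Itgb8 takes most of the rest.

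Beta 1 is the partner of alpha 3, alpha 5 and alpha 6, of alpha v, and of many other alpha subunits. Itgb1 (chromosome 8, 128685654 to 128733579) was the most abundant of the 10 genes, at 79.3, 85.5 and 101 RPKM in NC and at 121, 108 and 121 RPKM in HE. All HE values lay above NC, with NC3 nearest to them. The means were 88.5 ± 11.03 and 117 ± 7.63 RPKM (SD, n = 3 each). Their log2 difference was 0.41 (standard error 0.13) and ran from 0.33 to 0.50 with 1 sample left out. Since Itgav differed so little, Itgb1 had 2.15 to 2.50 times the RPKM of Itgav in NC and 2.93 to 3.60 times in HE.

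Alpha 5 joins beta 1 in the main fibronectin receptor. Itga5 (chromosome 15, 103344286 to 103366791) was at 10.8, 8.99 and 11.52 RPKM in NC and at 8.21, 8.98 and 5.70 RPKM in HE. The HE values lay below NC, but by less than 0.01 RPKM between HE2 and NC2. HE differed from NC by -0.47 on the log2 scale (standard error 0.20), and -0.27 without HE3. Thus Fn1 and Itga5 both had lower means in HE and were lowest in HE3, while Itgb1 was higher.

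Alpha 3 and alpha 6, the laminin-binding subunits, differed from each other. Itga3 (chromosome 11, 95044475 to 95076844) was at 3.46, 3.12 and 2.28 RPKM in NC and at 2.27, 2.20 and 1.23 RPKM in HE. Every HE value was below NC, with HE1 and NC3 almost equal, and the log2 fold change was -0.64 (standard error 0.28), or -0.37 without HE3. Itga6 (chromosome 2, 71786886 to 71858427) was at 17.3, 9.66 and 18.2 RPKM in NC and at 16.8, 15.9 and 19.1 RPKM in HE. Its groups overlapped apart from the low NC2, and the log2 fold change of 0.25 (standard error 0.24) became -0.04 without NC2. Itga6 therefore had 3.09 to 7.96 times the RPKM of Itga3 in NC and 7.27 to 15.5 times in HE, which overlap.

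**Figure D3:**
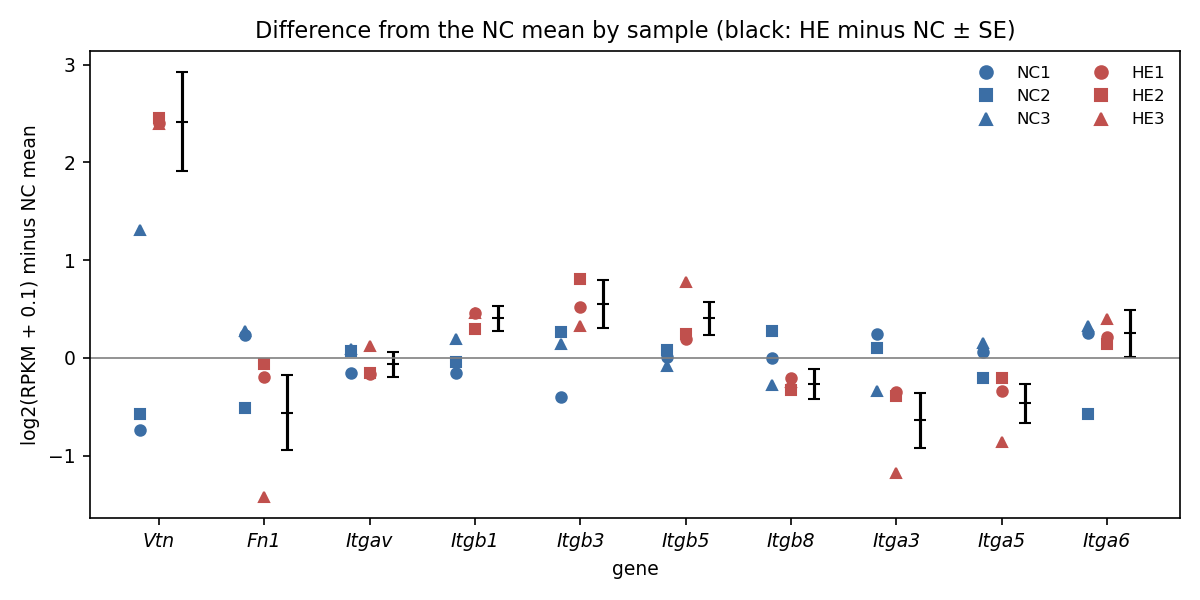
Difference of log2(RPKM + 0.1) from the NC mean for each gene and sample, with NC in blue, HE in red and the HE minus NC difference with its standard error in black. Vtn stands at 2.42, the other 9 genes lie between -0.64 and 0.55, and HE3 is the lowest point for Fn1, Itga3 and Itga5 and the highest for Itgb5.

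Across the 10 genes, 4 had every HE sample above every NC sample (Vtn, Itgb1, Itgb3 and Itgb5) and 2 had every HE sample below (Itga3 and Itga5). Among all tested genes these shares were 14.8% and 17.9%. As the list was proposed with these values known, the counts are a description. In the fits that left out 1 sample, the genes with groups apart could not change direction. Of the others, Fn1, Itgav and Itgb8 remained lower in HE, while Itga6 turned lower without NC2. Scaling by the median of ratios moved the median log2 fold change of all tested genes from -0.06 to -0.001 and left the direction of each of the 10 genes as it was.

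The order of levels between the genes was not used to choose them and was tested within samples. By mean log2(RPKM + 0.1) the order was Itgb1, Itgb5, Itgav, Itgb8, Fn1, Itga6, Itga5, Vtn, Itga3 and Itgb3. In 5 of the 9 neighbouring pairs all 6 samples had the same order, namely Itgb1 over Itgb5, Itgb5 over Itgav, Itgav over Itgb8, Itga6 over Itga5 and Itga3 over Itgb3 (exact paired permutation test over 6 samples, two-sided, p = 0.0312 each, the smallest this design allows, adjusted p = 0.0563). The mean differences of these pairs were 0.95, 0.50, 0.93, 0.83 and 1.28 on the log2 scale. Itgb8 and Fn1 could not be ordered, with Itgb8 higher in 3 of 6 samples (exact permutation test, p = 0.531, adjusted p = 0.598). Fn1 was above Itga6 in 5 of 6 samples, all but HE3 (exact permutation test, p = 0.812, adjusted p = 0.812), and without HE3 the pairs in one order numbered 6. Vtn did not keep its place either, since it was above Itga3 in 4 of 6 samples, all but NC1 and NC2. It was below Itga5 in 5 of 6, all but HE3 (exact permutation test, p = 0.469 and 0.156, adjusted p = 0.598 and 0.234). Both pairs contain the difference of Vtn between HE and NC, which was known when the genes were chosen. Their p-values are therefore not read as a test of its place.

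The genes with the nearest profile over the 6 samples were sought among 11523 tested genes with a mean of at least 1 RPKM, by the root mean square difference of log2(RPKM + 0.1) after each gene's mean was subtracted. Nearest to Vtn were Tcfl5 (0.58), Gpc3, a glypican (0.64), Perp (0.65) and Dner (0.68). Tcfl5 was at 0.741, 0.594 and 1.23 RPKM in NC and at 2.26, 2.88 and 3.24 RPKM in HE. Its step was smaller than that of Vtn, whose large increase was known when the genes were chosen. Nearest to Fn1 were Gpc6, another glypican (0.10), Gcnt7 (0.14), Tbc1d8b (0.14) and Mpp3 (0.16). This distance grows with the size of a gene's differences, so the distances for Vtn and Fn1 cannot be compared. Gpc6 was at 4.03, 2.73 and 4.15 RPKM in NC and at 3.33, 3.63 and 1.46 RPKM in HE, with NC2 and HE3 low as in Fn1.

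Marker mRNAs of cell types other than NSC/NPCs were summed per sample, because vitronectin is known from cells around blood vessels and fibronectin from fibroblasts. The 20 mesenchymal and perivascular mRNAs summed to 141 to 262 RPKM in NC and 147 to 310 RPKM in HE, which overlap, and 13 of the 17 tested were higher in HE. Among them the collagen gene Col3a1 was at 43.3, 12.2 and 25.0 RPKM in NC and at 92.7, 71.6 and 45.7 RPKM in HE. Of the pericyte markers, Rgs5 was at 0.07 to 0.25 RPKM in NC and 0.11 to 0.27 RPKM in HE, and Kcnj8 at 0.293 to 0.595 and 0.329 to 0.723 RPKM. Abcc9 was below the filter on low counts, at 0.0125 to 0.0189 and 0.0520 to 0.127 RPKM, without overlap. Dcn, a proteoglycan of fibroblasts, was at 2.46 to 5.96 RPKM in NC and 6.48 to 22.3 RPKM in HE, also without overlap. Pdgfrb was at 0.74 to 2.21 RPKM in NC and 1.07 to 2.52 RPKM in HE. The 4 tested mRNAs that were lower in HE included Zic1, at 22.3 to 29.1 RPKM in NC and 10.6 to 17.9 RPKM in HE, without overlap. The mesenchymal sum was lowest among the HE samples in HE3, as was Fn1, and Vtn in HE3 was close to the other HE samples. This is 1 sample, and the cells that the Vtn and Fn1 mRNAs came from were not tested.

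The 10 endothelial mRNAs summed to 3.22 to 4.12 RPKM in NC and 5.00 to 6.51 RPKM in HE, without overlap, and 4 of the 5 tested were higher in HE. Among them, Cdh5, the cadherin of endothelial junctions, was at 0.341 to 0.755 RPKM in NC and 1.66 to 2.75 RPKM in HE, and Esam at 0.316 to 0.423 and 0.521 to 1.4996 RPKM, both without overlap. Most of the difference between the sums was Cdh5, and without it the sums overlap. Flt1 was lower in HE, at 1.35 to 2.53 RPKM in NC and 1.34 to 1.81 RPKM in HE. Eng, counted as higher, was at 0.261 to 0.434 and 0.304 to 0.414 RPKM, and the groups overlapped in both. Pecam1 was at 0.17 RPKM or less and Cldn5 at 0.26 RPKM or less in every sample. The 16 microglial and macrophage mRNAs summed to 28.0 to 32.2 RPKM in NC and 30.4 to 54.0 RPKM in HE, with 5 of the 8 tested higher. Higher in every HE sample than in any NC sample were the complement genes C1qa, at 0 to 0.0508 RPKM in NC and 0.252 to 3.17 RPKM in HE, and C1qb, at 0 to 0.0979 and 0.578 to 2.00 RPKM. The same held for Tmem119, at 0.451 to 0.506 and 1.20 to 1.56 RPKM, and for Tyrobp, at 0 to 0.1598 and 0.419 to 2.42 RPKM. C1qa and Tyrobp were below the filter on low counts. Cd68 was instead lower in every HE sample, at 10.7 to 16.6 RPKM in NC and 4.60 to 8.59 RPKM in HE. Aif1 was at 0.24 RPKM or less and Ptprc at 0.05 RPKM or less throughout, and Lyz2 was at 0.25 to 1.38 RPKM in NC and 2.98 to 25.4 RPKM in HE. The 11 astrocyte mRNAs summed to 4261 to 5892 RPKM in NC and 2125 to 4176 RPKM in HE, without overlap, with 7 of 11 lower. Most of this sum was Apoe, at 2741 to 4034 RPKM in NC and 1072 to 2637 RPKM in HE. S100b, at 5.42 to 9.30 and 10.6 to 15.5 RPKM, and Gjb6, at 0.209 to 0.507 and 0.878 to 1.65 RPKM, were instead higher in every HE sample. The part of any of these cell types in the values of Vtn, Fn1 and the integrins was not tested.

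Over the other lists the sums overlapped between the groups. The 13 progenitor mRNAs summed to 3148 to 3791 RPKM in NC and 3021 to 4737 RPKM in HE, with 11 of 13 lower. Most of this sum was Vim and Fabp7. Of the 13, 5 had every HE sample below every NC sample and 0 had every HE sample above. Among all tested genes these shares were 17.9% and 14.8%. The 14 neuronal mRNAs summed to 126 to 160 and 144 to 282 RPKM, with 9 of 14 lower. For the 12 mRNAs of the oligodendrocyte lineage the sums were 376 to 450 and 439 to 571 RPKM, with 8 of 11 tested lower. The 10 ependymal mRNAs gave 64.2 to 85.5 and 36.6 to 72.3 RPKM, with 9 of 9 tested lower, and the 6 erythroid mRNAs 0.57 to 0.72 and 0.45 to 4.45 RPKM.

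**Figure D4:**
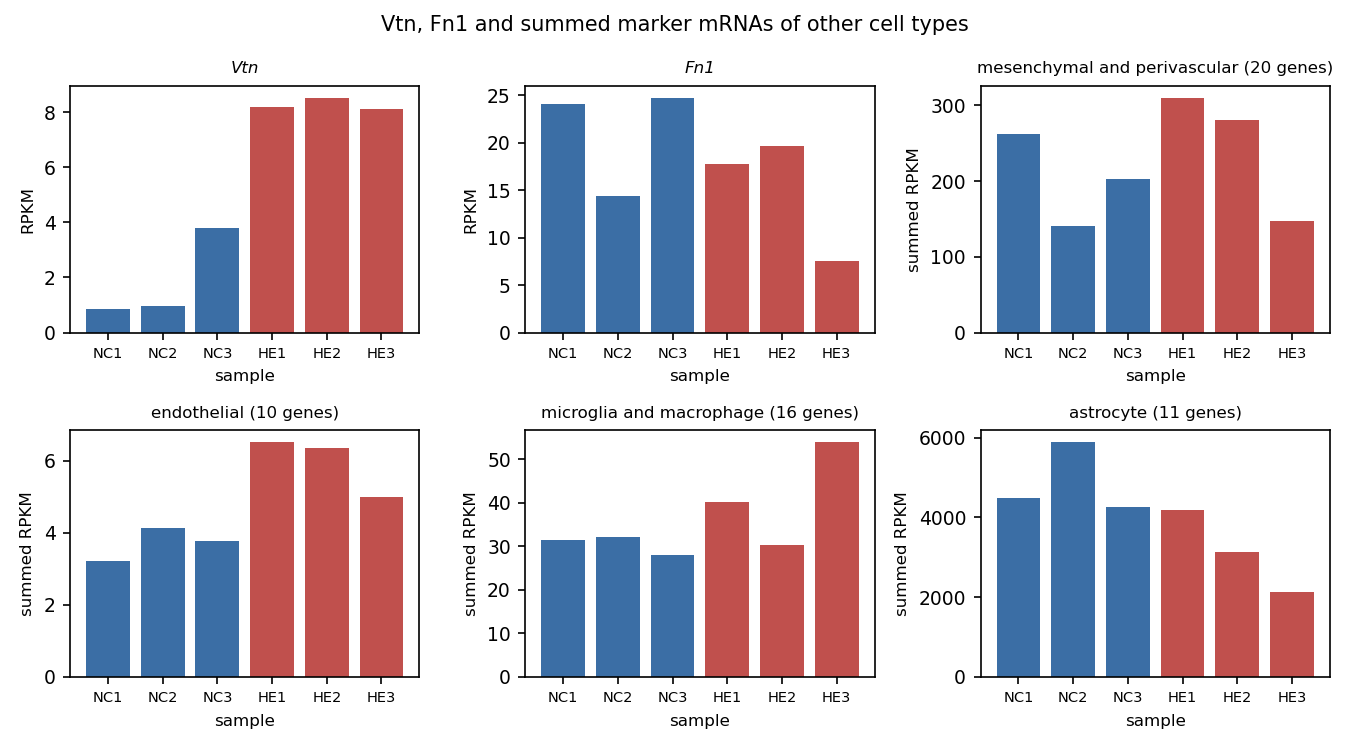
RPKM of Vtn and Fn1 and summed RPKM of 4 marker lists in each sample, as bars from 0 with NC in blue and HE in red. Vtn and the endothelial sum are higher in all 3 HE samples, and the endothelial sums overlap without Cdh5. The astrocyte sum is lower in all 3, and the mesenchymal and microglial sums overlap between the groups.

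The rest of the integrin family was examined as a list of 19 subunits, of which 14 were tested. Of these, 7 were higher and 7 lower in HE, with 1 higher and 2 lower at an unadjusted p-value under 0.05 (against 8.68% and 11.8% of all tested genes). The median log2 fold change was -0.05, against -0.06 over all genes. Without HE3 these medians were -0.15 and -0.0005, and without NC3, HE2 or NC2 the list was at -0.13, -0.12 and -0.10. The 3 with the smallest p-values are named by rule. Itgb4, the beta partner that alpha 6 has in epithelia, was at 8.13, 3.37 and 3.15 RPKM in NC and at 1.86, 1.19 and 0.319 RPKM in HE. Its groups did not overlap, NC1 and HE3 were the extremes, and the log2 fold change was -2.15 (standard error 0.61, adjusted p = 0.195 in limma), or -1.51 without HE3. So of the beta partners of Itga6, Itgb1 was higher in all HE samples and Itgb4 lower. Itga2b, the partner of beta 3 in platelets, was at 4.65 to 5.43 RPKM in NC and 1.07 to 3.01 RPKM in HE (log2 fold change -1.19, or -0.73 without HE3, adjusted p = 0.195 in limma). Itga4, a fibronectin-binding subunit of leukocytes, was scarce, at 0.0343 to 0.0935 RPKM in NC and 0.132 to 0.445 RPKM in HE (log2 fold change 1.01, or 0.66 without HE3, adjusted p = 0.211 in limma).

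Proteins that bind the integrin tails and build focal adhesions gave 38 tested genes of 40, of which 20 were higher and 18 lower, with a median log2 fold change of 0.02. At an unadjusted p-value under 0.05, 3 were higher and 6 lower (against 8.68% and 11.8% of all tested genes). Kank2, a talin-binding protein at the rim of adhesions, was at 10.9, 10.3 and 10.0 RPKM in NC and at 6.30, 6.54 and 4.49 RPKM in HE (log2 fold change -0.86, standard error 0.17). Git1, a scaffold that joins paxillin, was at 25.2 to 29.1 RPKM in NC and 13.1 to 20.2 RPKM in HE (log2 fold change -0.73). Fyn, a kinase of the Src family, went the other way, from 42.2 to 52.2 RPKM in NC to 63.1 to 73.1 RPKM in HE (log2 fold change 0.51). All 3 had groups apart and an adjusted p-value of 0.195 in limma.

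Of 34 other ligands of integrins 31 were tested, with 16 higher, 15 lower and a median of 0.03. The sign of this median depended on single samples, as it was -0.09 without HE1, -0.12 without HE2, -0.05 without NC2 and 0.10 without HE3. Here 2 were higher and 8 lower at an unadjusted p-value under 0.05 (against 8.68% and 11.8% of all tested genes). Thbs2, a thrombospondin of the matrix, was abundant, at 157, 161 and 119 RPKM in NC and 78.2, 39.3 and 80.2 RPKM in HE (log2 fold change -1.20, standard error 0.29, adjusted p = 0.195 in limma). Fbln5, an RGD protein of elastic fibres, was at 2.32 to 3.60 RPKM in NC and 0.843 to 2.05 RPKM in HE, and Ccn2, a matrix protein induced by TGF-beta, at 0.867 to 1.88 and 0.348 to 0.806 RPKM. Their groups did not overlap, with log2 fold changes of -1.18 and -1.17 and adjusted p-values of 0.195.

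Latent TGF-beta, which alpha v beta 8 activates, gave a list of 18 genes that were all tested, and 15 were lower in HE with a median of -0.29 (-0.20 without HE3 and -0.15 with a pseudocount of 1). Of the 18, 3 (16.7%) were lower at an unadjusted p-value under 0.05, against 11.8% of all tested genes. None was higher, against 8.68% of all tested genes. Ltbp3, which stores the latent growth factor in the matrix, was at 28.9, 24.7 and 28.1 RPKM in NC and at 16.2, 17.6 and 8.86 RPKM in HE (log2 fold change -0.99, standard error 0.25, adjusted p = 0.195 in limma). Ltbp1, of the same family, overlapped between the groups, at 8.15 to 14.8 and 5.39 to 9.37 RPKM (log2 fold change -0.82). Tgfb3, one of the growth factors itself, was at 11.2 to 17.2 RPKM in NC and 4.78 to 10.8 RPKM in HE (log2 fold change -0.78, or -0.40 without HE3).

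The list of plasminogen activation and of proteins that bind vitronectin or fibronectin had 20 tested genes of 23, with 9 higher and 11 lower and a median of -0.16, which was 0.000226 without HE3. At an unadjusted p-value under 0.05, 3 were higher and 5 lower (against 8.68% and 11.8% of all tested genes). Lrp1, an endocytic receptor that also clears matrix proteins, was at 59.1, 74.4 and 72.7 RPKM in NC and at 31.3, 36.8 and 17.8 RPKM in HE (log2 fold change -1.32, standard error 0.26, adjusted p = 0.195 in limma). Syndecans are heparan sulfate proteins that bind fibronectin beside integrins. Sdc4 was at 265 to 468 RPKM in NC and 184 to 218 RPKM in HE (log2 fold change -0.81), and Sdc1 at 58.3 to 70.9 and 43.9 to 52.8 RPKM (log2 fold change -0.46), both with groups apart.

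The 12 tetraspanins and other partners of laminin-binding integrins were all tested, with 4 higher and 8 lower and a median of -0.08 (-0.05 without HE3). At an unadjusted p-value under 0.05, 1 was higher and 2 lower (against 8.68% and 11.8% of all tested genes). Dag1, or dystroglycan, a laminin receptor outside the integrin family, was at 31.8 to 38.2 RPKM in NC and 25.6 to 28.9 RPKM in HE (log2 fold change -0.38). Cd47, which associates with alpha v beta 3, was at 3.75 to 4.92 and 1.72 to 3.42 RPKM (log2 fold change -0.69, or -0.41 without HE3), and the tetraspanin Tspan7 was higher, at 13.8 to 16.2 and 17.4 to 22.3 RPKM (log2 fold change 0.38). Over all 6 lists, 0 genes passed the adjusted threshold in limma.

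**Figure D5:**
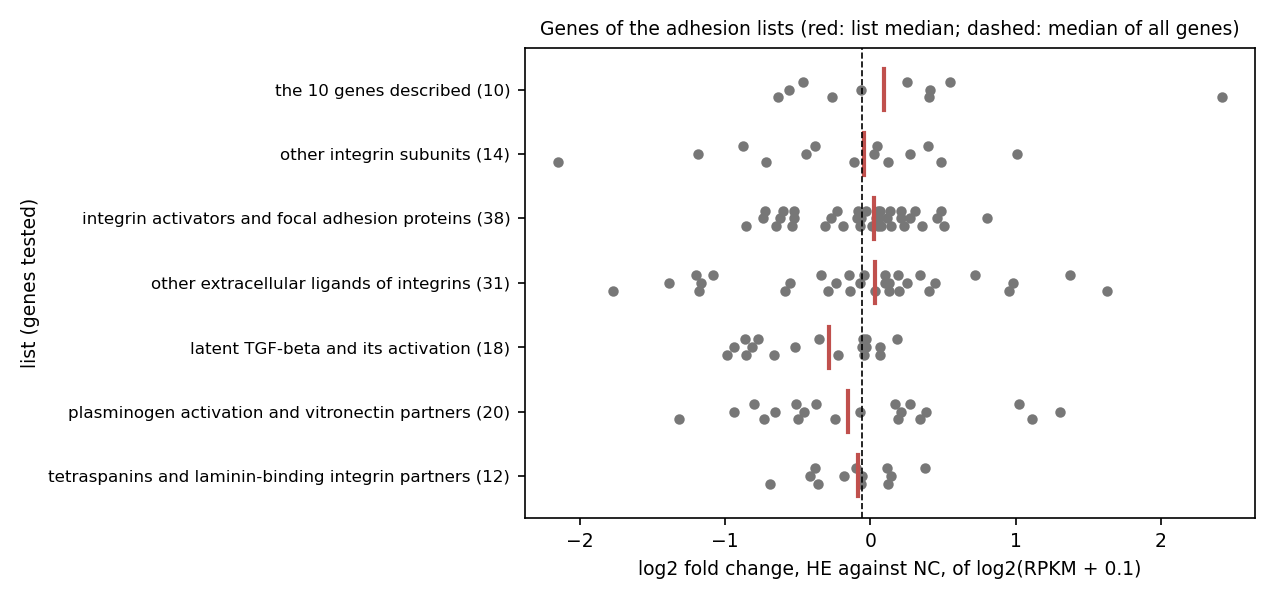
Log2 fold change, HE against NC, of every tested gene in the 10 genes described and in 6 lists around them, with the list median in red and the median of all tested genes (-0.06) dashed. Vtn, at 2.42, is the point farthest to the right, Itgb4 at -2.15 the farthest to the left, and the TGF-beta list has its median at -0.29.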

How the data were processed

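RNA-Seq of 3 NC and 3 HE samples was used. Reads of low quality or with adaptors were discarded by the authors, and TopHat2 aligned the rest. The submitters' processing notes name mm10 and CASAVA 1.7. The counting tool, the annotation and whether counting used strand are not given in the sources used here, and the paper and the labels name different sequencers. The authors deposited unscaled read numbers and RPKM, and the RPKM differed by at most 4.99e-07 from read number over gene length and total reads. Large read numbers contain commas, so a unit check did not accept the columns as counts. The commas were removed for voom, an alternative, and the DESeq2 test of the paper was not run.

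The main test was limma 3.58.1 in R 4.3.3 on log2(RPKM + 0.1), with a trend in the prior variance, group as the only term and Benjamini-Hochberg adjustment, and it was tested on simulated data. This scale understates the change of low genes. The filter asked for 15 reads over all samples and, in 3 of them or more, for the equivalent of 10 reads at median depth. Symbols were found for 21781 of 22048 identifiers. Coordinates and start regions are RefSeq's on GRCm38.p6. Alternatives were a pseudocount of 1, median-of-ratios scaling, 2 other filters, voom without and with sample quality weights, the replicate number as a block and each sample left out. The 10 genes and all lists were chosen with earlier results of these data known. From each of 6 lists the 3 tested genes with the smallest unadjusted p-value were named. For these genes the fits without 1 sample were added after the data were seen. Single marker genes, Sox10 and Lyz2 among them, were named after their values were seen. The reads on genes set the counting precision, from 16078675 to 19137059 per sample.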

Additional observations from a re-analysis of the deposited data

How the results depend on the processing

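Among the results of the comparison, the number of genes called between HE and NC was 0, and 0 to 101 with 1 sample left out, the 101 without NC3. Sample quality weights in voom gave 112. The genes at an unadjusted p-value under 0.05 numbered 2858, and 1320 (without NC1) to 3088 with 1 sample left out, with 1622 without NC2. The median of the focal adhesion list was 0.0847 with median-of-ratios scaling and 0.0837 with voom, and ran from -0.0273 to 0.0188 with 1 sample left out. That of the tetraspanin list was -0.00283 with sample quality weights, and that of the plasminogen list ran from -0.36 (without HE1) to 0.000226 (without HE3). The log2 fold change of Itgb3 was 0.86 with sample quality weights. With 1 sample left out, the median of the other integrin subunits ran from -0.15 (without HE3) to -0.02 (without NC1) and that of the other ligands from -0.12 (without HE2) to 0.10 (without HE3). Among the 18 named genes of the lists, all but Ltbp1 had groups apart, against 32.7% of all tested genes. As they were picked by the smallest p-values of the same comparison, this count is not a result. The direction of genes with groups apart could not change without 1 sample. Ltbp1 stayed lower in HE in each of these fits. The cause of these shifts was not tested. The 5 neighbouring pairs in one order stayed 5 or 6 with 1 sample left out, and 5 samples cannot reach a p below 0.0625.

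The replicate numbers of NC and HE correlated at 0.16, 0.09 and 0.06 in their deviations from the group means over all tested genes, so they do not show a pairing by design, although each sample correlated best with its own number. With the replicate block 0 genes were called and 3184 had an unadjusted p-value under 0.05. Depth limits Itgb3, Itga4 and Vtn in NC, which stand on few reads.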

Other observations

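The genes below were named after their values were seen. The most abundant alpha subunit in these cells was not among the 10 genes. Itga7, which pairs with beta 1 to bind laminin, was at 77.1, 126 and 103 RPKM in NC and at 89.2, 89.9 and 56.5 RPKM in HE, with overlapping groups. Its log2 fold change was -0.38 with HE3 included. HE3 was its lowest sample, and the value without HE3 is not given here. Among ligands, tenascin C (Tnc) and fibulin 2 (Fbln2) exceeded fibronectin in every sample, at 129 to 199 and 245 to 400 RPKM.

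Spp1, or osteopontin, another ligand of alpha v integrins, was at 19.8, 7.51 and 31.0 RPKM in NC and at 74.4, 29.9 and 62.5 RPKM in HE, so HE2 lay below NC3. Vcam1 and Icam1, ligands of leukocyte integrins, were high in 2 of the 3 NC samples. Vcam1 was at 30.0, 47.3 and 8.21 RPKM in NC and at 7.24 to 10.6 RPKM in HE, and Icam1 at 19.9, 26.4 and 7.65 RPKM in NC and at 6.40 to 8.89 RPKM in HE. Ilk, the integrin-linked kinase, was listed at 0.122 to 0.289 RPKM in the 6 samples, which is low for a gene that most cells use. How reads on overlapping genes were counted is not given in the sources used here, and this value is not read as a level of the gene.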
